A study of Mus musculus with 16 samples.

Results

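Complex I (NADH:ubiquinone oxidoreductase) is the entry point of electrons from NADH into the mitochondrial respiratory chain. The genes described here are the 45 genes of 45706 in the deposited table whose symbol begins with Ndufa, Ndufb, Ndufc, Ndufs or Ndufv, pseudogenes left out. They comprise 36 nuclear genes for subunits of the complex, 7 Ndufaf genes for assembly factors, and Ndufa4 and Ndufa4l2, which carry the family name. Ndufa4 was first described with complex I and is now counted with cytochrome c oxidase, and Ndufa4l2 is its paralogue.

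The libraries hold polyadenylated RNA from the quadriceps of mice with a knockout of Nampt restricted to skeletal muscle (KO, 8 libraries) and of wild-type mice (WT, 8 libraries). NAMPT is the rate-limiting enzyme that salvages nicotinamide into NAD, and the study's title asks whether loss of NAD in muscle speeds muscle ageing. The labels used here name no strain, sex, age, driver of the deletion or treatment, and do not say how many animals the libraries came from, so p-values measure only the spread between these libraries. By design, cells of the tissue other than muscle keep Nampt. Quadriceps is a mixture of fibres and other cells, and in bulk RNA fewer cells of a type and less RNA per cell cannot be told apart.

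Complex I takes electrons from NADH on a flavin at the tip of its matrix arm, passes them along iron-sulphur clusters to ubiquinone, and couples this to proton pumping in its membrane arm. The enzyme is built in modules: an N module that oxidises NADH, a Q module that reduces ubiquinone, and a proximal and a distal part of the membrane arm. Its pumping core is encoded by mitochondrial DNA and all other parts by nuclear genes, so the nuclear genes described here need to be expressed alongside the mitochondrial ones. In mammals the nuclear respiratory factor NRF1 and YY1 are among the factors known to act on promoters of respiratory chain genes.

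The members' start regions were searched for the NRF1 motif, spelled GCGCANGCG (N is any base), and the YY1 motif, spelled AAGATGGCG, on both strands; the first can match itself on both strands at one place. Windows of 250 bases before to 50 bases after the start came from RefSeq (GRCm38.p6) and were given for 39 of the 45 members. The NRF1 letters occurred in 10 of these 39 members (25.6%), against 14.9% of the 9900 tested genes with a window. The YY1 letters occurred in 5 of 39 (12.8%), against 3.51%. A match describes these letters only and does not show a site.

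The stretches around the NRF1 matches are shown because these letters recur in members of several modules. Each is 30 bases long, on the gene's strand, with the matched letters in capitals and their position counted from the RefSeq start; 1 match is shown per gene.
Ndufa8 (chr2:36049348-36049377, minus strand, position -29): tagagcagtgCGCTTGCGCgtcgctggaga
Ndufaf5 (chr2:140170652-140170681, plus strand, position 17): agtcccgttgGCGCATGCGcctaatagaaa
Ndufaf4 (chr4:24897960-24897989, plus strand, position -113): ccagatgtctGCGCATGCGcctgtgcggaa
Ndufs5 (chr4:123718265-123718294, minus strand, position -98): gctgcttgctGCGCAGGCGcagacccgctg
Ndufa5 (chr6:24527697-24527726, minus strand, position -26 from the nearer of its listed starts): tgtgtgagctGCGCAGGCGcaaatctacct
Ndufs6 (chr13:73328478-73328507, minus strand, position -15): gactgctgtgCGCCTGCGCcggcacttggt
Ndufa6 (chr15:82354248-82354277, minus strand, position 25): cgtggcaccgCGCGTGCGCacgctgaaggg
Ndufb4 (chr16:37654371-37654400, minus strand, position -22): cctcatatccGCGCAGGCGcagatgtgcgc
Ndufb10 (chr17:24724406-24724435, minus strand, position -2): tcacctttctGCGCAGGCGtagaggtcccg
Ndufa11 (chr17:56717692-56717721, plus strand, position -60): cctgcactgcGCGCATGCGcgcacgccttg

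The YY1 matches all lay just after the start, on the gene's strand. They are shown because they include Ndufs4 and Ndufc1, whose values are given in full further on. The log2 fold changes of KO against WT were -0.13 for Ndufs4 and -0.11 for Ndufc1. For the other carriers they were 0.05 (Ndufa9), -0.02 (Ndufs7) and -0.03 (Ndufs6). A link between these letters and the fold changes was not tested. Capitals mark the matched letters.
Ndufc1 (chr3:51408914-51408943, minus strand, position 23): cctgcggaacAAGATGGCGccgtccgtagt
Ndufa9 (chr6:126849096-126849125, minus strand, position 30): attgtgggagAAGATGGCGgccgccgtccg
Ndufs7 (chr10:80249463-80249492, plus strand, position 25): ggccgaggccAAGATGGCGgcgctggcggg
Ndufs6 (chr13:73328433-73328462, minus strand, position 34): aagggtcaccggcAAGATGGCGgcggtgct
Ndufs4 (chr13:114388045-114388074, minus strand, position 36): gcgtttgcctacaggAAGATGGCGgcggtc

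The libraries held between 16065394 and 51881258 estimated counts each, and the mean totals of KO and WT differed by less than their spread (two-sided exact permutation p = 0.501). RNA integrity numbers averaged 8.61 ± 0.164 (SD) in the 8 KO libraries and 8.56 ± 0.160 in the 8 WT libraries (two-sided exact permutation p = 0.661). Levels are given in CPM, the count scaled to a common library size with TMM factors. Nampt ranged over 60.4 to 88.7 CPM in KO against 125.5 to 161.1 CPM in WT, without overlap. Its log2 fold change was -0.95 ± 0.07 (SE; edgeR adjusted p = 9.68e-07). The defining markers of fast muscle fibres summed to between 135993 and 171897 CPM in each library, while the 4 cardiac markers (Myh6, Nppa, Tnni3 and Tnnt2) summed to 4.15 to 8.93 CPM in KO and 2.88 to 12.8 CPM in WT. The brown fat markers Ucp1 and Cidea summed to 0.664 to 1.56 CPM in KO and 0.623 to 1.152 CPM in WT.

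All 45 members were expressed well enough to pass the low-count filter that left 13792 genes. Together they made up 5057 ± 225 CPM in the 8 KO libraries (SD) and 5122 ± 224 CPM in the 8 WT libraries. Levels between genes are compared per kilobase of annotated exon (CPM per kb, mean over the 16 libraries). The subunits had a median of 78.8 CPM per kb and spanned a 24.3-fold range, whereas the assembly factors lay between 1.95 and 17.9.

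Among the highest levels was that of Ndufb9, a distal-arm subunit, at 237.5 ± 13.4 CPM per kb (SD over 16 libraries). Ndufa4 at 153.3 ± 10.1, Ndufb11 at 147.9 ± 8.09, Ndufa13 at 147.6 ± 7.63 and Ndufa8 at 142.9 ± 7.68 lay below it. Differences among these genes were not tested. The subunit with the lowest level was Ndufb2 at 9.79, below Ndufab1, the mitochondrial acyl carrier protein, at 14.4.

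Ranks of this kind depend on the length assigned to a gene. With the principal transcript in place of all annotated exons, the order of the 45 members correlated with the first at a Spearman rho of 0.79 across genes, which are not independent replicates. Ndufb9, at 347.8 CPM per kb, and Ndufa4, at 347.0, were then the highest. Ndufb7 moved from 21.5 to 156.4, and Ndufb2 remained the lowest subunit at 12.6. The principal transcript of Ndufb2 is itself long, at 4371 bp against 5628 bp of annotated exon. In CPM without a length Ndufb2 was not the lowest subunit, at 55.1 against 45.5 for Ndufb4.

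**Figure D1:**
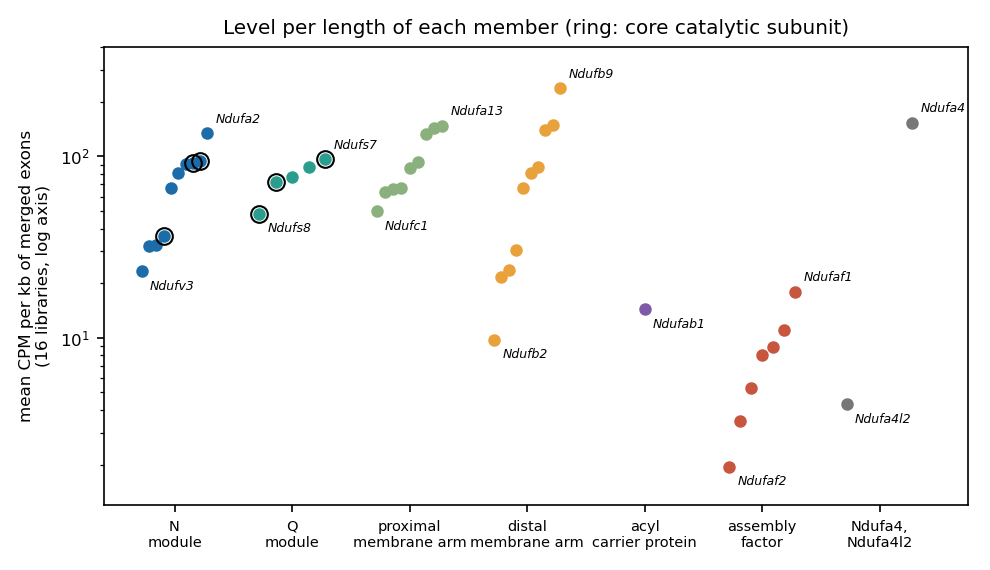
Level of 44 of the 45 members, as mean CPM per kb of merged exons over 16 libraries on a log axis, grouped by module, with the core catalytic subunits ringed. The 7 assembly factors (1.95 to 17.9) lie below every subunit except Ndufb2 and Ndufab1, and Ndufb9 is highest of those shown at 237.5.

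The modules had similar middles on this scale: the median level was 74.0 CPM per kb in the N module, 82.3 in the Q module, 86.0 in the proximal arm and 73.9 in the distal arm. Within the N module Ndufa2, an accessory subunit with a thioredoxin-like fold, was highest at 134.2 ± 7.91 per kb of annotated exon. With the principal transcript Ndufa6 was highest, at 203.3. The low end of the family per kb of annotated exon was Ndufaf2, the assembly factor that acts late at the N module, at 1.95 ± 0.181. With the principal transcript Ndufaf2 stood at 8.56 and Ndufa4l2 was lowest, at 5.05. Per kb of annotated exon Ndufa4l2, known as a target of hypoxia-inducible factor, stood at 4.30 ± 0.458, far under its paralogue Ndufa4.

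The complex I transcripts of KO muscle lay close to their WT levels. Of the 45 members, 0 had an edgeR adjusted p under 0.05, against 6 of all 13792 tested genes (0.0435%), and the smallest adjusted p among the members was 0.479. At an unadjusted p under 0.05 there were 3 members (6.67%), all 3 below WT in KO, against 9.57% of all tested genes (5.55% below and 4.02% above). DESeq2 also called 0 members, against 1.76% of the 5527 genes to which it gave an adjusted p. It gives none to genes of low mean count. As 8894 tested genes lay within the members' range of levels, Ndufa4l2, the lowest in CPM, had none and could not be called. Other members of low level may have had none either. DESeq2 gave 3 members an unadjusted p under 0.05, against 5.92%. Limma with voom called 0, against 0.0363%, and gave 2 an unadjusted p under 0.05, against 9.7%. The log2 fold changes ran from -0.14 to 0.06 with a median of -0.01, against 0.00 over all tested genes. Values were below 0 for 27 members and above 0 for 18, against 48.2% of all genes below 0.

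The size of change that remains possible was narrow. The 95% intervals of all 45 members stayed within a 1.5-fold change up or down, against 86.2% of all tested genes. All 45 also stayed within a 1.25-fold change, against 62.6% of all tested genes and 85.0% of the 8894 genes within the members' range of levels. The same held for every gene on the comparison lists. These hold 27 nuclear genes of complexes II to IV with cytochrome c (Cycs), 15 of ATP synthase and 74 of the mitochondrial ribosome. They are chosen lists and need not be complete. Intervals this narrow were therefore not particular to the members. The bounds of the members' intervals reached from -0.30 to 0.22 on the log2 scale. KO and WT values overlapped for all 45 members; over all tested genes the 2 groups did not overlap for 0.123%. The median standard error of a member was 0.05, against 0.08 over all tested genes. It was 0.05 for complexes II to IV, 0.04 for ATP synthase and 0.04 for the mitochondrial ribosome.

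**Figure D2:**
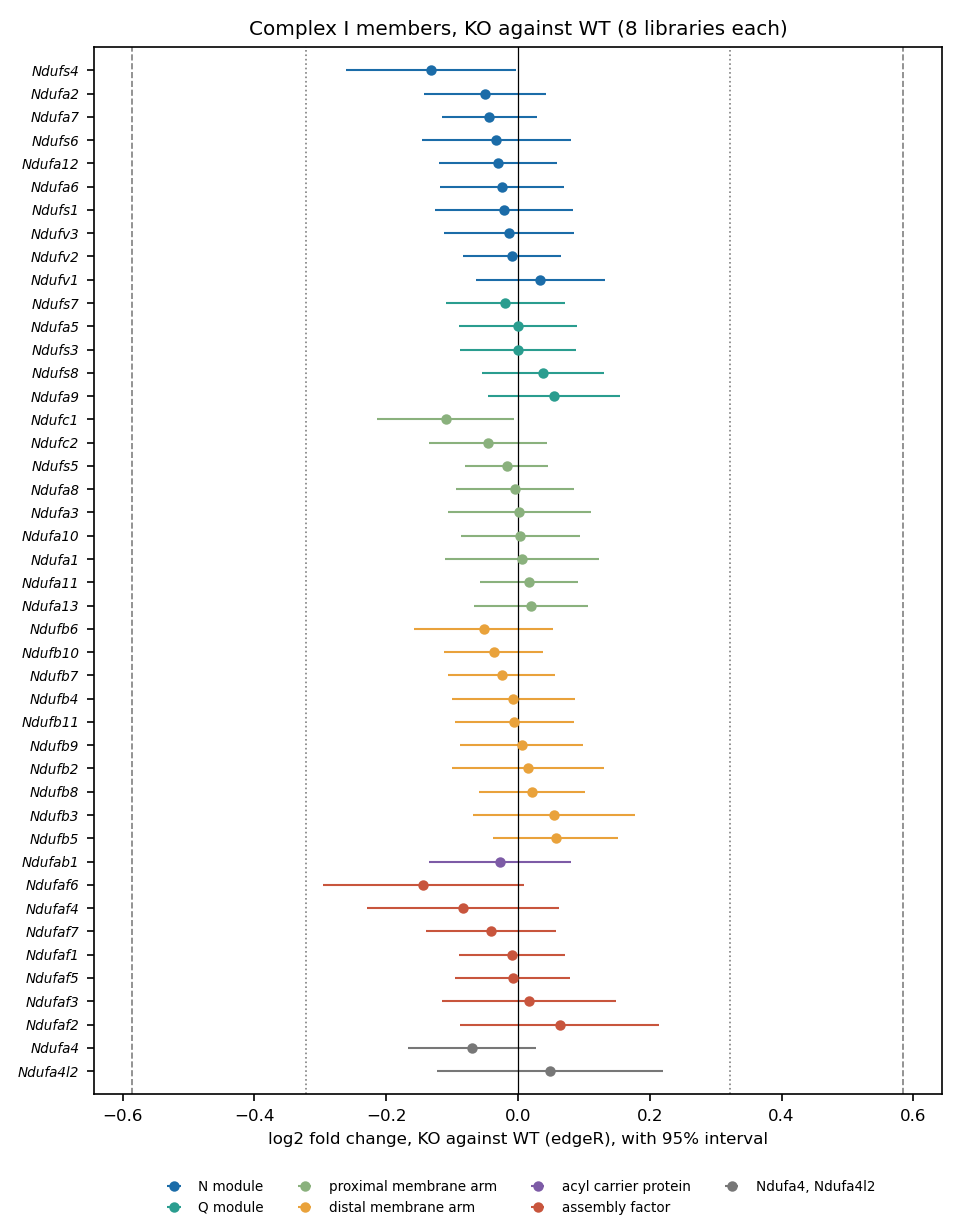
Log2 fold change of 44 of the 45 members, KO against WT, from edgeR with 95% intervals (8 libraries a group), coloured by module. Dotted lines mark a 1.25-fold and dashed lines a 1.5-fold change; every interval lies between the dotted lines, and those of Ndufs4 and Ndufc1 do not reach 0.

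The N module holds the NADH-oxidising machinery. Of its 10 genes, 9 had a log2 fold change below 0 and 1 above, with a median of -0.03, and 0 were called. These genes varied together between libraries (median pairwise r 0.54 with group means removed), so their signs are not independent. Ndufv1 carries the flavin and the NADH site. Its level was 226.1, 246.8 and 254 CPM in KO (lowest, median and highest library) and 211.3, 241.2 and 258.6 CPM in WT, a log2 fold change of 0.03 ± 0.05 (SE) and the highest of the module. The KO values lay wholly within the WT range.

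Ndufs1, the largest iron-sulphur subunit, lay at 261.7, 292.4 and 311.8 CPM in KO and 260.5, 297.9 and 335.1 CPM in WT. The ranges again overlapped almost fully, and the log2 fold change was -0.02 ± 0.05 (SE). Ndufv2, which binds a further iron-sulphur cluster beside the flavin, lay at 191.9, 202.7 and 216.4 CPM in KO and 191.5, 206.3 and 215.6 CPM in WT. It was among the least variable members, and its log2 fold change was -0.01 ± 0.04 (SE).

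Ndufs4 is the accessory subunit that helps to fix the N module to the rest of the arm, and its loss is a known cause of Leigh-like disease in mice. The gene lies at chr13:114287795-114388258 on the minus strand (GRCm38, GENCODE vM21). Its level was 78.0, 81.2 and 94.0 CPM in KO and 74.7, 97.3 and 99.4 CPM in WT. KO libraries were below the WT mean in 7 of 8 cases, but the lowest value of all 16 was WT library 8, so the groups overlapped. The log2 fold change was -0.13 ± 0.06 (SE), or 91.2% of WT, with an unadjusted edgeR p of 0.0446 and an adjusted p of 0.502. Over 29 other ways of processing it stayed between -0.17 and -0.11, with adjusted p between 0.278 and 0.689.

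The remaining N-module genes, Ndufa2, Ndufa6, Ndufa7, Ndufa12, Ndufs6 and Ndufv3, encode accessory subunits around the core. Their log2 fold changes lay between -0.05 (Ndufa2) and -0.01 (Ndufv3). Ndufa7 varied by only 4.06% between the 16 libraries (coefficient of variation), at 53.8 to 60.7 CPM in KO and 56.4 to 62.3 CPM in WT.

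**Figure D3:**
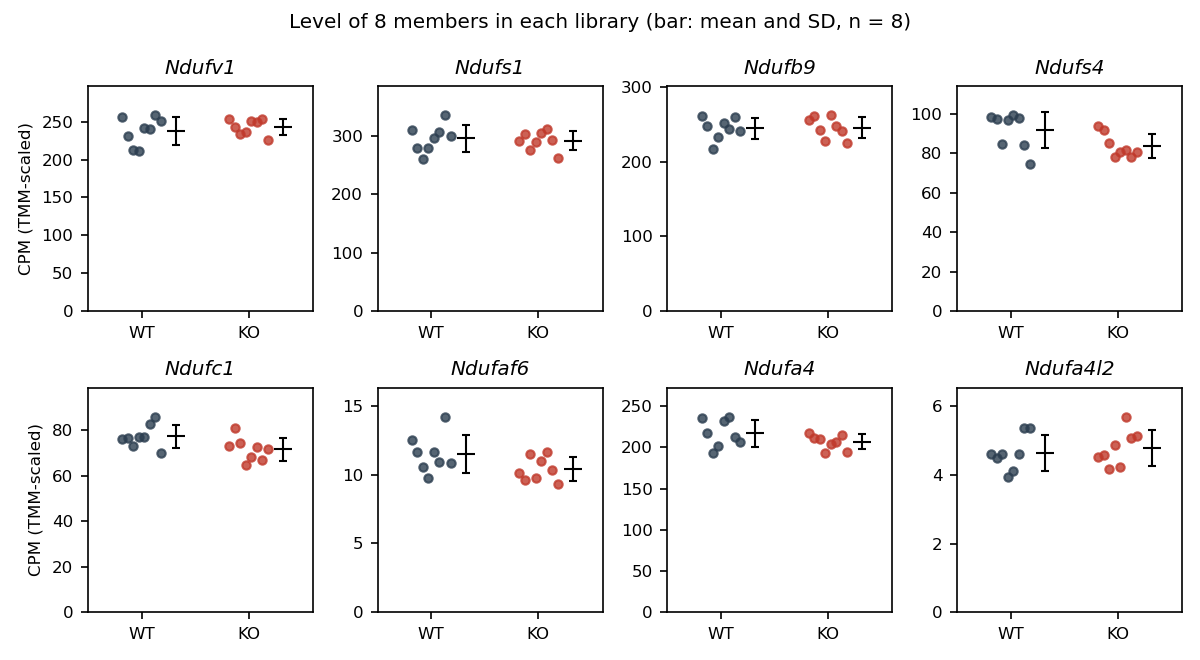
CPM of 8 members in each WT and KO library, with the mean and SD of each group (n = 8) and axes from 0. The groups overlap in every panel; in the Ndufs4 panel most KO points sit near 80 CPM while 5 of the 8 WT points lie above all KO points.

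The Q module receives the electrons and reduces ubiquinone. Of its 6 genes, 4 had a log2 fold change above 0 and 2 below, with a median of 0.00. Ndufs3, a core subunit of the arm that carries no cluster, lay at 141.8, 155.3 and 167.3 CPM in KO and 145.0, 159.2 and 168.0 CPM in WT (log2 fold change 0.00 ± 0.04, SE). Ndufs7, which holds the last iron-sulphur cluster before ubiquinone, lay at 148.5, 163.1 and 180.8 CPM in KO and 153.6, 165.8 and 186.0 CPM in WT (-0.02 ± 0.04). Ndufs8, the ferredoxin-like subunit with a pair of clusters, lay at 59.2, 61.7 and 69.4 CPM in KO and 53.8, 62.6 and 64.7 CPM in WT (0.04 ± 0.04). All of these ranges overlapped, as did those of the accessory subunits Ndufa5 (0.00) and Ndufa9 (0.05, the highest of the module).

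The proximal membrane arm is the part next to the Q module, and its 9 genes split into 5 above 0 and 4 below. Ndufc1, a small membrane subunit (chr3:51404677-51408988, minus strand), lay at 64.7, 72.3 and 81.2 CPM in KO and at 70.1, 76.9 and 86.0 CPM in WT. KO libraries were below the WT mean in 7 of 8 cases, with overlapping groups. Its log2 fold change was -0.11 ± 0.05 (SE), with the smallest adjusted p of the family (unadjusted p = 0.0384, edgeR adjusted p = 0.479). At the other end of this module Ndufa13, also known as GRIM-19, lay at 171.3 to 203.6 CPM in KO and 169.7 to 197.7 CPM in WT (log2 fold change 0.02 ± 0.04).

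Ndufs5 was the steadiest member of the family. It lay at 77.0, 79.6 and 82.9 CPM in KO and 75.4, 81.5 and 83.8 CPM in WT, a coefficient of variation of 2.88% over 16 libraries. The median over the 45 members was 5.84%, against 11.7% over all tested genes and 8.79% over tested genes of the same range of levels. Other nuclear mitochondrial genes were about as steady, with medians of 6.73% for complexes II to IV, 5.78% for ATP synthase and 6.12% for the mitochondrial ribosome. The other proximal genes, Ndufa1, Ndufa3, Ndufa8, Ndufa10, Ndufa11 and Ndufc2, had log2 fold changes between -0.04 (Ndufc2) and 0.02 (Ndufa11).

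The distal membrane arm carries the outer proton pumps, and its 10 genes, all of the Ndufb series, had fold changes near 0. Log2 fold changes were above 0 for 5 and below 0 for 5, with a median of 0.00 and 0 genes at an unadjusted p under 0.05. The extremes were Ndufb6, at 51.2 to 62.7 CPM in KO and 51.2 to 64.2 CPM in WT (-0.05 ± 0.05, SE), and Ndufb5, at 139.8 to 170.7 CPM in KO and 131.0 to 159.7 CPM in WT (0.06 ± 0.05). Ndufb9, the most abundant member per length, lay at 225.5, 245.0 and 261.9 CPM in KO and 216.7, 245.7 and 260.9 CPM in WT (0.01 ± 0.04), with nearly identical ranges. Ndufab1, which sits in both arms and also serves fatty acid and lipoic acid synthesis, had a log2 fold change of -0.03 ± 0.05.

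The assembly factors are not part of the finished enzyme. Their levels were low, at 4.88 to 38.2 CPM per library, and the standard errors of their log2 fold changes ran from 0.04 to 0.07. Of the 7 genes, 5 lay below 0 and 2 above, 0 were called and 0 had an unadjusted p under 0.05. The eighth gene of the series, Ndufaf8, is listed in the table under its older name 1810043H04Rik, outside the rule used here. It lay at 8.08, 8.47 and 9.05 CPM in KO and 8.45, 8.94 and 10.4 CPM in WT (log2 fold change -0.13 ± 0.05, SE; unadjusted p = 0.0254, edgeR adjusted p = 0.435).

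Ndufaf6 (chr4:11051045-11076205, minus strand), needed for an early step around the membrane arm, had the lowest log2 fold change of the family, -0.14 ± 0.07 (SE; unadjusted p = 0.0635, edgeR adjusted p = 0.561). It lay at 9.34, 10.2 and 11.7 CPM in KO and at 9.78, 11.3 and 14.2 CPM in WT, the highest being WT library 7. Without that library the value was -0.09, and with the ratio of slow to fast fibre markers as a covariate it was -0.21. It was also the most variable member, with a coefficient of variation of 11.4%.

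Ndufaf4, which acts with Ndufaf3 on the Q module, lay at 26.9, 30.1 and 38.2 CPM in KO and 29.0, 31.96 and 36.4 CPM in WT (-0.08 ± 0.07, SE). KO library 2 was the highest of all 16 although 7 of 8 KO libraries were below the WT mean, and without it the log2 fold change was -0.13. Over the 29 alternatives the value ran from -0.13 to -0.02, the latter without KO libraries 1, 3, 5 and 8. Ndufaf3 lay at 8.90, 9.49 and 11.1 CPM in KO and 7.82, 9.77 and 10.3 CPM in WT (0.02 ± 0.06). Both factors' groups overlapped.

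Ndufaf1, an early chaperone of the membrane arm, lay at 25.2, 27.2 and 28.2 CPM in KO and 25.1, 27.01 and 28.5 CPM in WT (-0.01 ± 0.04, SE). Ndufaf5 and Ndufaf7 are methyltransferase-like factors that modify Q-module subunits, and their log2 fold changes were -0.01 ± 0.04 and -0.04 ± 0.05. Ndufaf2 had the highest value of the family, 0.06 ± 0.07, at 4.88, 5.96 and 6.72 CPM in KO and 5.21, 5.56 and 6.30 CPM in WT. The KO range enclosed the WT range.

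Ndufa4 lay at 192.7, 208.3 and 217.9 CPM in KO and 192.7, 215.2 and 236.9 CPM in WT. The lowest values of both groups coincided, 7 of 8 KO libraries were below the WT mean, and the log2 fold change was -0.07 ± 0.05 (SE; edgeR adjusted p = 0.683). Ndufa4l2 lay at 4.17, 4.73 and 5.69 CPM in KO and 3.95, 4.60 and 5.38 CPM in WT (0.05 ± 0.08), with overlapping groups and a coefficient of variation of 10.6%.

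Some members share sequence or position with other genes. Of the 45 members, 22 overlap another annotated gene, 18 of them a gene on the opposite strand, and whether the counting used strand is not stated in the sources used here. Among partners with a level in the deposited data, the partner was the more abundant gene in 3 cases: Shmt2 at 24.7 CPM beside Ndufa4l2 at 4.71, Impdh2 at 33.8 beside Ndufaf3 at 9.66, and Smim15 at 8.00 beside Ndufaf2 at 5.81. No level was available for partners of Ndufb9 (Gm49356), Ndufv2 (AC119957.1), Ndufab1 (Gm44986) and Ndufaf2 (B230220B15Rik). For 7 members (Ndufs3, Ndufa12, Ndufs6, Ndufb4, Ndufs5, Ndufab1 and Ndufb11) the estimated count was not a whole number in more than 8 libraries (tolerance 0.02), as happens when reads are divided between genes of similar sequence.

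The subunits varied together from library to library. After the mean of each group was removed, the Pearson r between pairs of the 36 subunits had a median of 0.59, and 619 of 630 pairs were above 0. The median was 0.64 within the 8 KO libraries (623 pairs above 0) and 0.59 within the 8 WT libraries (563 pairs above 0). All of these correlations are a description over libraries that share their depth and scaling, with no test. Pairs within a module (N 0.54, Q 0.59, proximal 0.51, distal 0.64) were about as close as pairs at large. Pairs of a subunit and an Ndufaf factor had a median of 0.40, and pairs of factors 0.26.

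**Figure D4:**
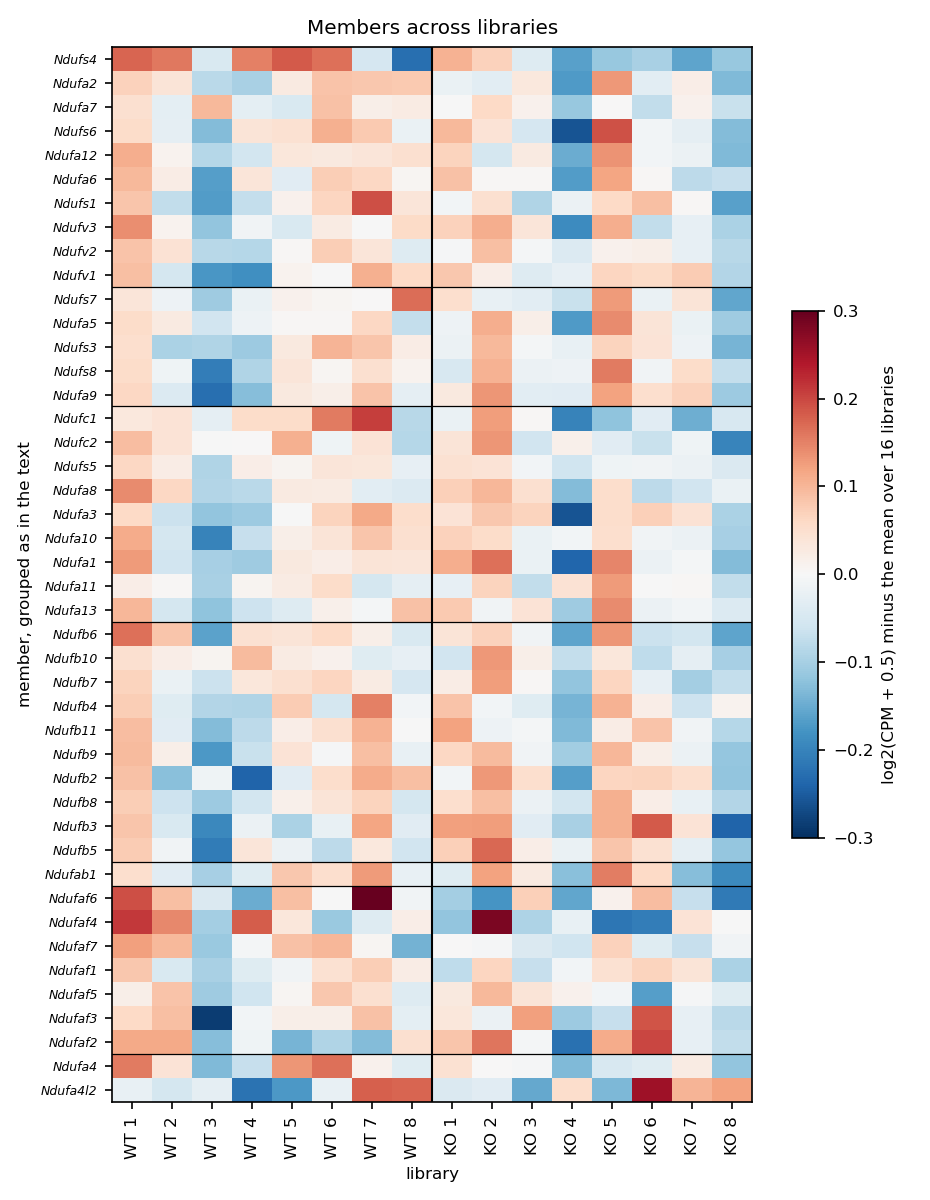
Log2(CPM + 0.5) of 44 of the 45 members, each minus its mean over the 16 libraries, with members in rows by module and libraries in columns (WT left, KO right); colours end at -0.3 and 0.3. Whole columns are pale blue (WT 3, KO 4, KO 8) or pale red (WT 1, KO 2, KO 5), and the assembly factors and Ndufa4l2 follow this less closely.

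The columns that stood out were few, and their amplitude was small. The mean of the 36 subunits was lowest in WT 3, at 92.8% of the average library, with KO 8 and KO 4 at 92.9%. It was highest in WT 1, at 105.8%, a 1.14-fold range in all. It ran from -0.11 to 0.07 in KO and from -0.11 to 0.08 in WT (log2 minus the mean over libraries), and the KO mean was 0.01 below that of WT.

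Members differed in how closely they followed the rest. The correlation of a subunit with the mean of the other subunits had a median r of 0.77, and 31 of 36 exceeded 0.5. It was highest for Ndufb9, at 0.95, and lowest for Ndufs4, at 0.36, followed by Ndufa7 at 0.37 and Ndufb10 at 0.43. Among the other members r was 0.72 for Ndufa4, 0.12 for Ndufaf4 and -0.15 for Ndufa4l2. Subunits with the NRF1 letters near their start had a median r of 0.77 against 0.79 for those without (8 and 24 genes). For the YY1 letters the medians were 0.62 with and 0.80 without (5 and 27 genes), and values of single subunits spread from 0.36 to 0.95.

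The subunits' shared variation reached the rest of the nuclear-encoded respiratory chain. Across 16 libraries their mean correlated with that of 27 nuclear genes of complexes II to IV at r = 0.93 (rho 0.94; 0.97 within KO, 0.96 within WT, and 0.91 without WT 3 and KO 2). It correlated with 15 nuclear ATP synthase genes at r = 0.93 (rho 0.94) and with 74 mitochondrial ribosomal protein genes at 0.78 (rho 0.71). The 5 genes outside the family that were most like the subunit mean were Uqcr11 (r = 0.96) and Uqcrh (0.91) of complex III, Atp5e (0.92) and Atp5k (0.91) of ATP synthase, and Cox4i1 (0.91) of complex IV.

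Other measures moved with the subunit mean to a lesser degree. The TMM scaling factor had r = -0.56 and the log2 total count r = -0.50, the latter -0.20 without WT 3, the deepest library, and KO 2, the shallowest. The 75 cytosolic ribosomal protein genes, a list added after the data were seen, had r = 0.09 overall but 0.90 within KO and -0.70 within WT. WT 3 had both the lowest subunit mean (-0.11) and the highest ribosomal protein mean (0.11), so the WT value leans on it. Without WT 3 and KO 4 the overall r was 0.26. The slow fibre markers had r = 0.49 and Myh2, the myosin of fast oxidative fibres, r = 0.51, whereas the fast fibre markers had 0.13 and the RNA integrity number 0.02. Tested genes outside the family with a principal transcript of up to 1 kb had a median r of 0.11, against 0.01 for those of 1 to 2 kb. The part of each of these in the shared variation was not tested.

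**Figure D5:**
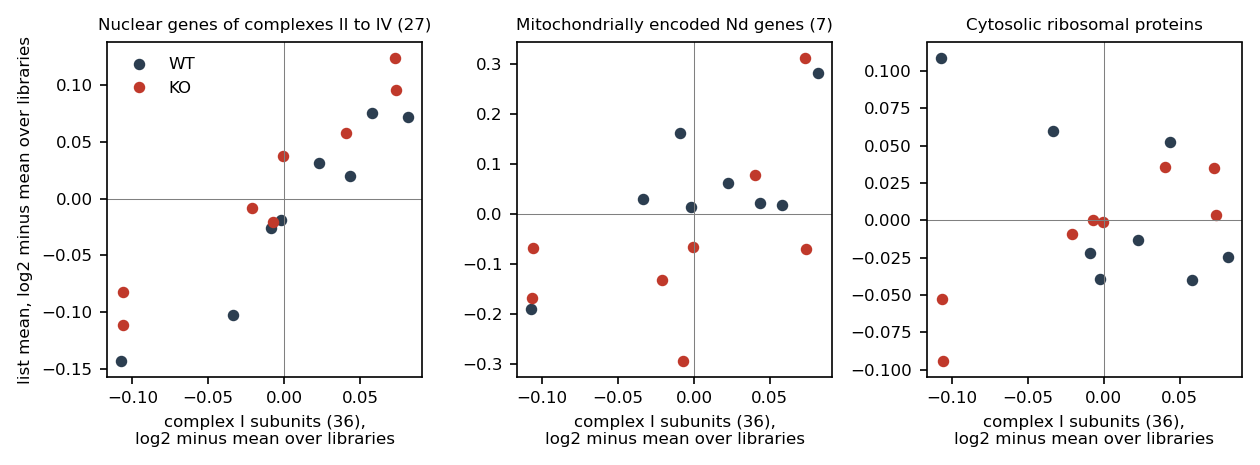
Mean of 36 complex I subunits in each library (x axis) against the mean of 27 nuclear genes of complexes II to IV, the 7 mitochondrially encoded Nd genes and 75 cytosolic ribosomal protein genes (y axes), all as log2(CPM + 0.5) minus the mean over 16 libraries; the y scales differ. Points follow one line for complexes II to IV (r = 0.93), scatter more for the Nd genes (r = 0.61) and take opposite slopes in KO (r = 0.90) and WT (r = -0.70) for the ribosomal proteins. In that last panel WT 3 is lowest on the x axis and highest on the y axis, and the WT slope leans on it.

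The transcriptional regulators linked to respiratory genes gave weaker relations to the subunit mean. Ppargc1a, the coactivator PGC-1alpha, had r = 0.44 over 16 libraries, Esrra, the nuclear receptor that it coactivates, 0.48, and Nrf1 0.05. Tfam, which packages and transcribes mitochondrial DNA, had r = 0.54, which dropped to 0.14 without WT 3 and KO 4. Nampt itself had r = 0.08. Of the 9 regulators tested, 0 were called between KO and WT (0.0435% of all tested genes), and 2 (22.2%, against 9.57%) had an unadjusted p under 0.05. They were Ppargc1b (log2 fold change 0.19 ± 0.07, SE; edgeR adjusted p = 0.385) and Esrra (-0.13 ± 0.05; adjusted p = 0.385).

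The 7 complex I subunits encoded by mitochondrial DNA varied more than the nuclear ones, with a standard deviation of their mean over libraries 2.56 times that of the nuclear subunits. Their mean correlated with that of the nuclear subunits at r = 0.61 (rho 0.56; 0.53 within KO and 0.74 within WT). All 7 log2 fold changes were below 0, yet 0 were called and 0 had an unadjusted p under 0.05. They were -0.12 for mt-Nd1, -0.10 for mt-Nd2, -0.21 for mt-Nd3, -0.07 for mt-Nd4, -0.05 for mt-Nd4l, -0.08 for mt-Nd5 and -0.02 for mt-Nd6, with a median of -0.08. These genes are transcribed from one molecule, so their values are not independent. The mean of the 7 was lowest in KO 3 (-0.29, log2 minus the mean over libraries) and highest in KO 2 (0.31), so that KO enclosed the WT range.

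mt-Nd1, the membrane subunit next to the ubiquinone site, had the smallest p of these genes. It lay at 14388, 15573 and 18450 CPM in KO and 15846, 17607 and 19272 CPM in WT (log2 fold change -0.12 ± 0.06, SE; unadjusted p = 0.0642, edgeR adjusted p = 0.561), with overlapping groups.

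Assembly factors of complex I that do not carry the Ndufaf name also had log2 fold changes near 0. Of 12 tested, 6 lay above 0 and 6 below, with a median log2 fold change of 0.00, and 0 had an unadjusted p under 0.05. The most abundant, Ecsit and Tmem70, were at -0.06 and -0.02. The range ran from -0.08 for Tmem126b to 0.10 for Tmem261, now called Dmac1.

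Other nuclear mitochondrial groups are given beside these; with 0.0435% of all tested genes called, a list of their size would seldom hold a call. Complexes II to IV had 0 of 27 genes called and a median log2 fold change of 0.03, with Sdha at 0.09 and Uqcrc1 at 0.00. ATP synthase had 0 of 15 called and a median of 0.00, with Atp5b at 0.05 and Atp5a1 at 0.03. The mitochondrial ribosome had 0 of 74 called and 5 with an unadjusted p under 0.05 (6.76% of the list and 9.57% of all tested genes; Mrps33, Mrps24, Mrps15 and Mrps17 below 0, Mrps11 above), with a median of -0.02.

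Markers of fibre and cell types are given beside these results. All 8 slow fibre markers were above 0 with a median log2 fold change of 0.27, while their summed level ran from 539.7 to 951.8 CPM in KO and from 243.4 to 973.7 CPM in WT, and 0 had an unadjusted p under 0.05. Of the 9 fast fibre markers, 8 were below 0 with a median of -0.05, and Actn3 (-0.19) and Tnni2 (-0.09) had an unadjusted p under 0.05. The 3 endothelial markers were above 0, with sums of 187.8 to 217.0 CPM in KO and 168.4 to 197.2 CPM in WT, and Cdh5 (0.18) had an unadjusted p under 0.05. So did Pax7 (0.26), the satellite cell marker. None of these markers was called by edgeR after adjustment. With the slow to fast ratio as a covariate, 0 members were called and 44 of the 45 intervals lay inside a 1.25-fold change. The members' median log2 fold change was then -0.03, against -0.01 without the covariate. An unadjusted edgeR p under 0.05 was reached by 4 members, against 3 without it. The part of the fibre mix and of the other cell types in the members' values was not tested.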

How the data were processed

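Polyadenylated RNA of mouse quadriceps was sequenced as paired 52 bp reads in 8 KO and 8 WT libraries, per the labels' protocols. The submitters' processing notes name bcl2fastq 4.0.3, STAR, Salmon and build GRCm38. Versions of STAR and Salmon, annotation release and strand setting were not given in the sources used here. What the authors deposited are estimated counts per gene, not scaled to depth, and 11.1% of the values were not whole numbers. They were rounded before the count model, and 0 table columns lacked a library.

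Genotypes came from the labels. KO and WT were compared over all genes with edgeR 4.0.16 in R 4.3.3 (quasi-likelihood F test, TMM factors, default filterByExpr, Benjamini-Hochberg adjustment, calls under 0.05). Standard errors and 95% intervals were derived from each fold change and F value. CPM used TMM-scaled library sizes, correlations used log2(CPM + 0.5), and totals and RNA integrity were compared over all 12870 assignments of libraries. Exon lengths and overlaps came from GENCODE vM21 (GRCm38), which matched 45 of 45 members. Some overlapping genes of that release had no level in the deposited data, so it may not be the release used for counting. No 2 libraries were near-duplicates (smallest chi-square per degree of freedom 8.71 in KO and 10.2 in WT). Intervals cover counting error and the spread between libraries, at a depth of 16065394 to 51881258 estimated counts.

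The members and gene lists were chosen with earlier results of these data known. Named are the core catalytic subunits, all Ndufaf genes, Ndufa4 and Ndufa4l2, members with an unadjusted p under 0.05, the extremes of each module in fold change and level, the 3 most and 3 least variable members, the mitochondrial Nd genes, and the 5 genes most like the subunit mean. Of the other lists described, genes with an unadjusted p under 0.05 or the 2 most abundant are named. A gene taken by these rules is counted but not reported here by name. Others singled out, such as Ndufb10 for its low correlation, were chosen after their values were seen. Alternatives were other scaling factors, filters and covariates, DESeq2 1.42.0, limma 3.58.1 with voom, a replicate block and leaving out libraries. The fit was also run on simulated counts, and the outcome is not used here.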

Additional observations from a re-analysis of the deposited data

Results flagged for a closer look

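Ndufaf3 in WT contained 1 library apart from the others: WT library 3 was at 7.82 CPM, and the next lowest WT library was at 9.43 CPM, so that this gap made up 0.652 of the whole WT range. WT library 3 also had the lowest subunit mean. Of 90 groups of 8 libraries looked at (45 members in KO and in WT) 1 passed the 95% limit of Dixon's test, which chance passes in about 5% of groups.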

How the results depend on the processing

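Each of 29 alternatives left 0 members called and 45 of 45 members inside a 1.5-fold change. DESeq2 gave no adjusted p to Ndufa4l2, the member lowest in CPM, so with DESeq2 it could not be called. Each of 1305 member fold changes lay within 1 within-group SD of its reported value, but this bound is wide. The members' median within-group SD was 0.085 (log2), against a median standard error of 0.045. Leaving out 1 library of 8 could hardly move a value that far, so this count is no check of stability. The smallest adjusted p of any member was 0.278 (Ndufs4 without WT library 8). Between 0 and 5 members had an unadjusted p under 0.05, so which members pass that level varies with the setting; 25 of 45 kept their sign throughout. Intervals inside a 1.25-fold change dropped from 45 to 42 without KO libraries 1, 3, 5 and 8, which were rich in Rn7sk, an RNA without a poly(A) tail, and to 44 without KO 3, without KO 6 or with the fibre ratio as a covariate. The median member fold change (log2) lay between -0.02 and 0.00 when single libraries were left out and between -0.03 and 0.01 otherwise.

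Across the whole table the number of called genes varied. Against 6, there were 97 with DESeq2, 39 with the share of RNA without a poly(A) tail as a covariate, 3 without a low-count filter, and 2 with RLE factors, with total library size, with the fibre ratio or Rn7sk as a covariate (the last chosen after seeing the data), or without KO 1, 3, 5 and 8. Leaving out single libraries gave 2 to 8. With the replicate number as a block, 2 genes and 0 members were called, and 1 member had an unadjusted p under 0.05. KO and WT libraries of the same number correlated between -0.11 and 0.25 in their deviations from the group means, and only KO 1 and KO 4 correlated best with their own number, so the numbers were not taken to pair the libraries. Ndufaf2, Ndufaf3 and Ndufa4l2 lay under 12 CPM in every library, and whether they share reads with overlapping genes was not tested; the cause of the differences between settings was not tested.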
